A study of Mus musculus with 91 samples.

Results

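The acute phase genes were followed through the liver RNA of 91 adult male mice. They are 31 genes chosen by name from the list of symbols, namely serum proteins that hepatocytes secrete in inflammation, lipocalin and CD14, and the receptors, signal carriers and feedback regulators of interleukin-6 and interleukin-1. A probe set with a single gene symbol was named for 29 of them, among 18193 genes tested, and no such probe set was named here for Serpina3m and C3. Of these 29, 21 encode circulating or shed proteins and 8 encode receptors, signal carriers, a chemokine and regulators. The values are log2 expression values from Affymetrix mouse arrays, 1 array per mouse, so that a difference of 1 is a doubling. A gene is said to pass where limma's p, adjusted over all genes, lay below 0.05. Counts of members at an unadjusted p under 0.05 by limma have no share of all genes beside them. They are not read as results about the members.

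The study gave mice carcinogenic and non-carcinogenic chemicals and compared their livers with those of control mice. There were 10 treated groups with 49 livers and 9 control groups with 42 livers, with 5 mice in 15 groups and 4 mice in 4 groups, namely piperonyl butoxide and the control cohorts Co1, Co3 and Co5. C57BL mice received CITCO at 10 mg/kg or piperonyl butoxide at 600 mg/kg by daily intraperitoneal injection. Others received Wy-14643 at 100 mg/kg, pioglitazone at 100 mg/kg, 1,4-dichlorobenzene at 600 mg/kg or cyproterone acetate at 160 mg/kg by daily oral gavage, or methapyrilene at 1000 ppm in food, each for 28 days. Phenobarbital was given at 0.05% (w/v) in drinking water for 28 or 56 days. CITCO, an agonist of human CAR, was also given at 10 mg/kg for 28 days to C57BL/hCAR/hPXR mice, which carry human in place of mouse CAR and PXR in a C57BL background. The controls were water for 28 or 56 days, corn oil (for cyproterone acetate and 1,4-dichlorobenzene alike) and carboxymethylcellulose (CMC), the last in 5 C57BL cohorts and 1 hCAR/hPXR group. Co1 was the control of Wy-14643, Co2 of piperonyl butoxide, Co3 of methapyrilene, Co4 of CITCO and Co5 of pioglitazone. The route by which CMC was given is not stated in the labels, so that cohort, route and time of the experiment cannot be told apart among the CMC groups. The titles of the livers given phenobarbital for 28 days end in "(2)", which the labels do not explain.

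The acute phase response is the change in liver protein synthesis that follows infection, injury or other inflammation. Interleukin-6 binds its receptor chain IL-6Rα and the shared chain gp130 on hepatocytes and activates the transcription factor STAT3. Interleukin-1 and tumour necrosis factor act through NF-kB, and C/EBP factors act with both. Serum amyloid A, orosomucoid, haptoglobin, fibrinogen and lipocalin-2 are then secreted at higher levels, while SOCS3 limits the signal from gp130. In mice, serum amyloid A and serum amyloid P are strong reactants and C-reactive protein is a weak one.

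The factors of this response bind short DNA motifs, some of them near gene starts, so a few promoter stretches that hold one are shown: those of Saa1, Saa2, Saa3 and Orm2, which with Lcn2 had the widest spans among control groups, of Cxcl1, of Orm3 beside its relative Orm2, and of Apcs and Itih4 as examples of the STAT-type motif. RefSeq entries of build GRCm38.p6 matched 26 of the 31 listed genes, and 250 bases before each annotated start were searched on both strands. A C/EBP-type motif, TTGCNNAA, was found in 13 of the 26 genes (50%), against 10.8% of 27025 genes with such entries. A STAT-type motif, TTCNNNGAA, was found in 6 (23.1%), against 8.13% of all genes, and the NF-kB consensus in 3 (11.5%), against 4.46%. None of these motifs was found in the windows of Crp, Fgg, Serpina3n, Itih3, Lrg1, Il1rn, Il6ra, Il6st and Stat3. These matches are letters in a window and not measured binding sites, and the arrays do not measure binding. In the stretches below, read 5′ to 3′ on the strand of the gene, capitals mark the motif.
Saa1, chr7:46743144-46743173, minus strand, C/EBP-type: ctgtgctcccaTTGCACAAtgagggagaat
Saa2, chr7:46751639-46751668, plus strand, C/EBP-type: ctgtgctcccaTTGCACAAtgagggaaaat
Saa3, chr7:46715757-46715786, minus strand, C/EBP-type: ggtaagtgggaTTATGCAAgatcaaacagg
Orm2, chr4:63362318-63362347, plus strand, C/EBP-type: gagagaacattTTGCGCAAgacatttccca
Orm3, chr4:63356026-63356055, plus strand, C/EBP-type: gagggaacattTTGCACAAgacatttatca
Itih4, chr14:30886415-30886444, plus strand, STAT-type: aaacctgcatTTCCGAGAActtgcaccagc
Apcs, chr1:172895275-172895304, minus strand, STAT-type: atcttcTTCTAGGAAagcacagggtcatga
Cxcl1, chr5:90891164-90891193, plus strand, NF-kB consensus: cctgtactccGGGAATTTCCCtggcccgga

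The motif began 182 bases before the start in Saa1 and 183 bases before it in Saa2, which RefSeq lists as synonyms of each other. Over the 250 bases the promoters of Saa1 and Saa2 were identical at 238 of 251 aligned positions (94.8%). Those of Saa1 and Saa3 were identical at 50.2%, and the motif of Saa3, read on the opposite strand, began 99 bases before the start. The motif of Orm2 began 120 bases and that of Orm3 121 bases before the start, and both windows were identical at 219 of 255 aligned positions (85.9%). Whole windows are given for Lcn2, the member with the widest span of levels, and for Fgb, whose control means spanned only 14.20 to 14.64 and whose window holds both a STAT-type and a C/EBP-type motif.
Lcn2, chr2:32387740-32387989, minus strand: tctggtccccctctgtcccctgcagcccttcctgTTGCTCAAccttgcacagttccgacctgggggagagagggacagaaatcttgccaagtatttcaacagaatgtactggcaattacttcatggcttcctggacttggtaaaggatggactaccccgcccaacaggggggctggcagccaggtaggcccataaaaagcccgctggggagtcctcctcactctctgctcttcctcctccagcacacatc
Fgb, chr3:83049864-83050113, minus strand: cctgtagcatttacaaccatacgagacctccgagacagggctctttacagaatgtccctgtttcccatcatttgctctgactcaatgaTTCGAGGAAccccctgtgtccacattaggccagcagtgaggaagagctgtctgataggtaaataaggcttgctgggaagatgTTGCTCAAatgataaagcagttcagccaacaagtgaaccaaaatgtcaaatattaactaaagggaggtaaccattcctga

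Array medians lay between 5.18 and 5.36 and all values between 2.61 and 15.34. RMA equalises the arrays, so that a change in all RNA of a cell is not visible. In whole liver, fewer cells of a type and less RNA per cell cannot be told apart. Alb, the albumin gene and the hepatocyte reference, had group means between 15.07 and 15.21 and passed in no comparison. Il6 was near the low end of the scale, with means from 3.36 to 3.70, and Tnf lay between 4.55 and 4.89. Saa1 was read by a probe set built to detect several transcripts and Saa2 by one prone to cross-hybridise, so that the signals of the closely similar Saa1 and Saa2 cannot be fully separated. The number of mice per group limits the precision, and p-values measure the spread between these mice within cohorts, with no second cohort of any treatment.

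Control livers already differed widely in the acute phase genes. Ordered by mean, Co4 and the hCAR/hPXR CMC group held the top 2 of 9 places in 23 of 29 members, and 1 of these groups had the highest mean in 26. Co1 had the lowest mean in 15 members, water for 56 days in 7 and Co2 in 4. The highest and lowest control means differed by a median of 1.41 over the 29 members, from 0.19 for Il1rn, which encodes the interleukin-1 receptor antagonist, to 7.88 for Lcn2. Co2, Co4 and the hCAR/hPXR CMC group are the controls named for the injected compounds, and they held the top 3 places in 13 members. These orders and spans were taken for the members alone. The share of all genes with the same order is not given, so these counts have no background beside them.

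**Figure D1:**
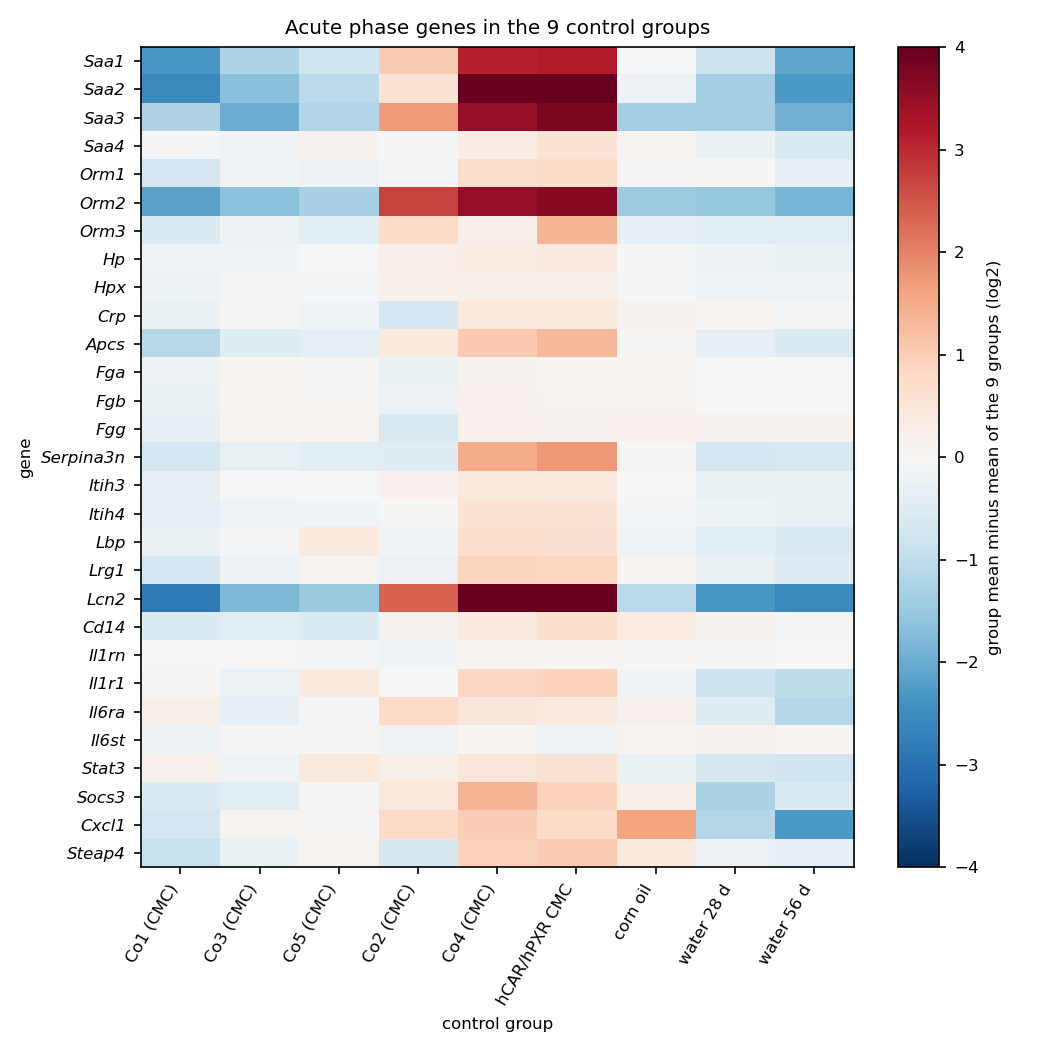
Each cell shows a group mean minus the mean of the 9 control groups (log2) for 1 acute phase gene, with the colour scale ending at 4 in either direction. Co4 and the hCAR/hPXR CMC group are red in most rows, most deeply in Saa1, Saa2, Saa3, Orm2 and Lcn2, while Fga, Fgb and Il1rn are pale throughout.

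Lcn2 encodes lipocalin-2, which binds bacterial iron carriers. In Co4 its values were 13.35, 13.18, 11.34, 13.94 and 12.96, and in the hCAR/hPXR CMC livers 11.98, 12.81, 14.11, 13.86 and 13.76. In Co2 they were 9.63, 9.92, 11.42, 11.02 and 11.14. In Co1 they were 5.49, 6.30, 5.21 and 4.70. All livers of Co4, of the hCAR/hPXR group and of Co2 thus lay above all livers of Co1, and Co2 overlapped Co4 in 1 liver of each. In Co3 the values were 5.39, 6.59, 8.27 and 5.55 and in Co5 10.79, 4.71, 6.62 and 5.01, so that a single Co5 liver reached the range of Co2. Lcn2 was higher in Co4 than in Co1 by 7.53 ± 1.04 (SE), 185-fold, with an adjusted p of 3.53e-07. It was higher by 6.50 ± 1.04 than in Co3 and by 6.17 ± 1.04 than in Co5, with adjusted p-values of 6.85e-05 and 5.27e-05. Against Co2 the difference was 2.33 ± 0.979 with an adjusted p of 0.0618 and did not pass.

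Of the serum amyloid A genes, whose proteins replace apolipoproteins on high-density lipoprotein, Saa1, Saa2 and Saa3 were high in the same cohorts. Saa2 stood at 14.28, 14.56, 13.90, 14.62 and 14.26 in Co4 and at 6.76, 9.03, 7.32 and 6.84 in Co1. In Co2 it stood at 8.82, 9.45, 11.95, 11.36 and 11.55. The 5 Co4 livers lay close together and above every liver of Co1 and Co2. Saa2 was higher in Co4 by 6.84 ± 1.15 than in Co1 (adjusted p = 1.21e-05), by 3.70 ± 1.08 than in Co2 (adjusted p = 0.00536), by 5.92 than in Co3 and by 5.30 than in Co5. Saa1 was higher by 5.44 than in Co1, by 4.36 than in Co3 and by 3.92 than in Co5, and its difference of 2.10 from Co2 did not pass (adjusted p = 0.0752). Saa3, which macrophages and fat cells also make, was higher by 4.72 ± 0.587 than in Co1, by 1.81 ± 0.553 than in Co2, by 5.49 than in Co3 and by 4.68 than in Co5. Saa4, the constitutive member of the family, differed by only 0.17 to 0.42 between Co4 and the other cohorts and did not pass, although its other probe set was higher in Co4 than in Co1 by 1.78 (adjusted p = 0.00143).

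The orosomucoids, plasma proteins that bind drugs and lipids, moved unevenly. Orm2 had values of 12.43, 12.49, 11.75, 12.83 and 12.30 in Co4 and of 6.12, 8.10, 6.32 and 6.26 in Co1. Its values in Co2 were 10.48, 10.81, 12.36, 12.31 and 11.75, which overlapped those of Co4. The difference was 5.66 ± 0.942 from Co1, a 50.6-fold difference with an adjusted p of 9.74e-06, against 0.82 from Co2, which did not pass. Orm1 was higher in Co4 than in Co1 by 1.39 ± 0.230, than in Co2 by 0.78 and than in Co5 by 0.96, and its difference of 0.84 from Co3 had an adjusted p of 0.050305. Orm3 did not pass against any C57BL cohort, at 0.80 from Co1 and −0.52 from Co2. Ranked by size over all 18193 genes, Lcn2, Saa2, Orm2, Saa1 and Saa3 held places 1 to 5 in the difference of Co4 from Co1.

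**Figure D2:**
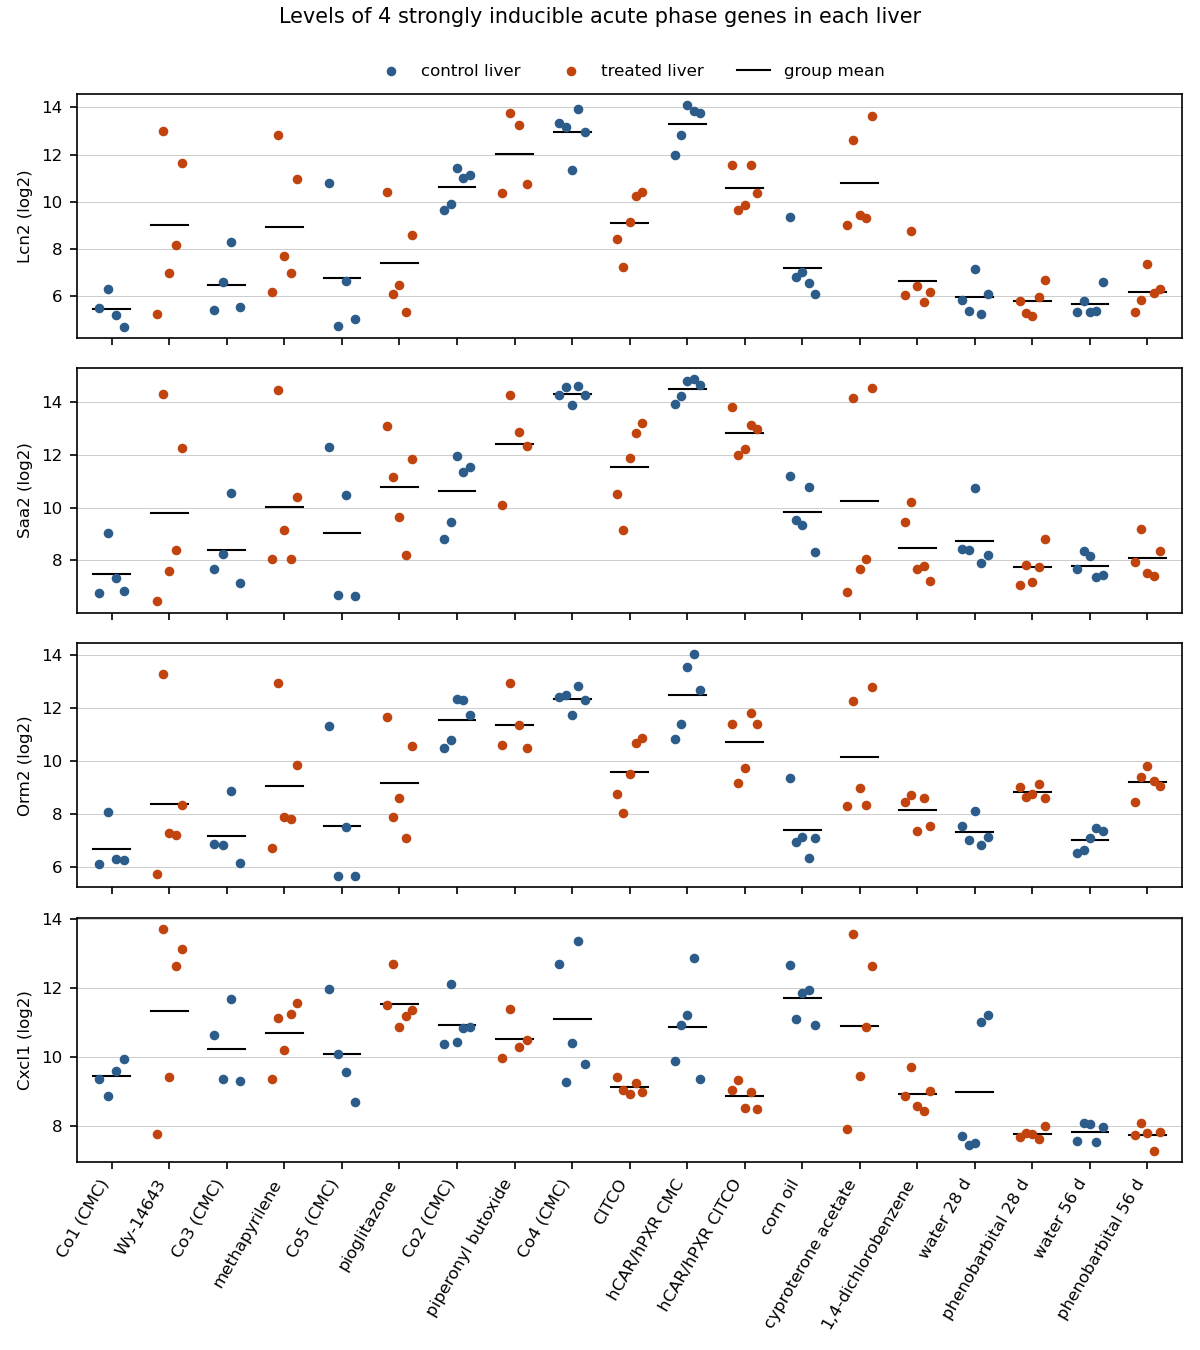
Each point is the log2 level of 1 liver and each line a group mean, with control groups in blue beside the groups treated against them in orange, for Lcn2, Saa2, Orm2 and Cxcl1. Co4 and the hCAR/hPXR CMC livers lie between 11.34 and 14.11 in Lcn2. The highest livers given Wy-14643, methapyrilene and cyproterone acetate lie at 13.01, 12.83 and 13.64. Each of these groups holds another high liver, with the remaining ones at lower levels.

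Of all 21 secreted or shed members, 18 were higher in Co4 than in Co1, and Saa4, Orm3 and Cd14 did not pass. Apcs, the gene of serum amyloid P, was at 13.05, 12.79, 12.38, 14.07 and 13.23 in Co4 and at 10.77, 11.47, 10.84 and 10.67 in Co1, with no overlap. It was higher by 2.17 ± 0.340 than in Co1, by 1.57 than in Co3 and by 1.42 than in Co5, and stood at 0.67 from Co2, which did not pass. Serpina3n, a serine protease inhibitor, was higher in Co4 by 2.20 than in Co1, by 1.98 than in Co2, by 1.79 than in Co3 and by 1.92 than in Co5. Lrg1, a leucine-rich glycoprotein of serum, was higher by 1.57 than in Co1 and by 1.11 than in Co2. Itih4, a hyaluronan-binding heavy chain family member, was higher by 0.91, 0.51, 0.68 and 0.66 than in Co1, Co2, Co3 and Co5. Hp, the haptoglobin gene, and Hpx, the haemopexin gene, whose proteins clear free haemoglobin and haem, were higher than in Co1 by 0.48 and 0.44.

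Fibrinogen and C-reactive protein followed another order of cohorts, with Co2 at or near the bottom. Fgg, which encodes the fibrinogen gamma chain, was at 14.62, 14.49, 14.60, 14.76 and 14.57 in Co4 and at 13.32, 13.53, 14.17, 14.16 and 13.91 in Co2, with no overlap. It was higher in Co4 than in Co2 by 0.79 ± 0.102 (adjusted p = 1.34e-09), while Co3 and Co5 differed from Co4 by 0.05 and 0.10. Crp was at 13.07, 12.83, 13.12, 13.45 and 12.96 in Co4 and at 11.56, 11.42, 12.44, 12.66 and 12.03 in Co2, again without overlap, a difference of 1.07 ± 0.147 (adjusted p = 8.72e-09). Co2, in which Lcn2 and Orm2 were high, thus held the lowest control mean in Crp, Fga, Fgg and Il1rn.

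Of the 8 receptor and signalling members, 2 were higher in Co4 than in Co1. Socs3, the feedback inhibitor of gp130, was higher by 1.92 ± 0.620 (adjusted p = 0.0233), with 11.86, 10.71, 9.26, 11.37 and 8.73 in Co4 against 8.25 to 8.59 in Co1. Its lowest Co4 liver was only just above the highest Co1 liver, and the call was lost without Co4 replicate 1 or 4 or Co1 replicate 1 or 3. Steap4, a metalloreductase induced by inflammatory signals, was higher than in Co1 by 1.80 ± 0.432 and than in Co2 by 1.56 ± 0.408. Stat3 differed from Co1 by 0.31, Il6st, the gp130 gene, by 0.26, Il1r1, the interleukin-1 receptor gene, by 0.78, and Cxcl1, a neutrophil chemokine, by 1.66, and none of them passed.

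Over the list, 20 of 29 members were higher and none lower in Co4 than in Co1, where 8.65% of all genes were higher and 16% were called in either direction. The median difference was 0.90, against −0.04 over all genes, and in 21 members every Co4 liver lay above every Co1 liver, as in 6.79% of all genes. Against Co2, 12 members were higher and none lower, where 16.2% of all genes were higher and 30.1% were called, with a median of 0.67. Against Co3, 9 were higher, where 0.511% of all genes were higher and 0.813% were called, with a median of 0.75, and against Co5, 10 were higher, where 1.48% were higher and 2.93% called, with a median of 0.66. These 4 comparisons share the Co4 livers. The count against Co3 was 4 without Co3 replicate 4. The count against Co5 was 6 without Co4 replicate 4 or Co5 replicate 4 and 4 without Co5 replicate 2. For fits without 1 liver the shares of all genes called are not given. Fitted on the compared groups alone, Hp and Serpina3n lost their call against Co3, and Saa1, Apcs and Serpina3n against Co5. A test of any difference among the 5 C57BL CMC cohorts was passed by 21 of 29 members and by 33.2% of all genes.

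**Figure D3:**
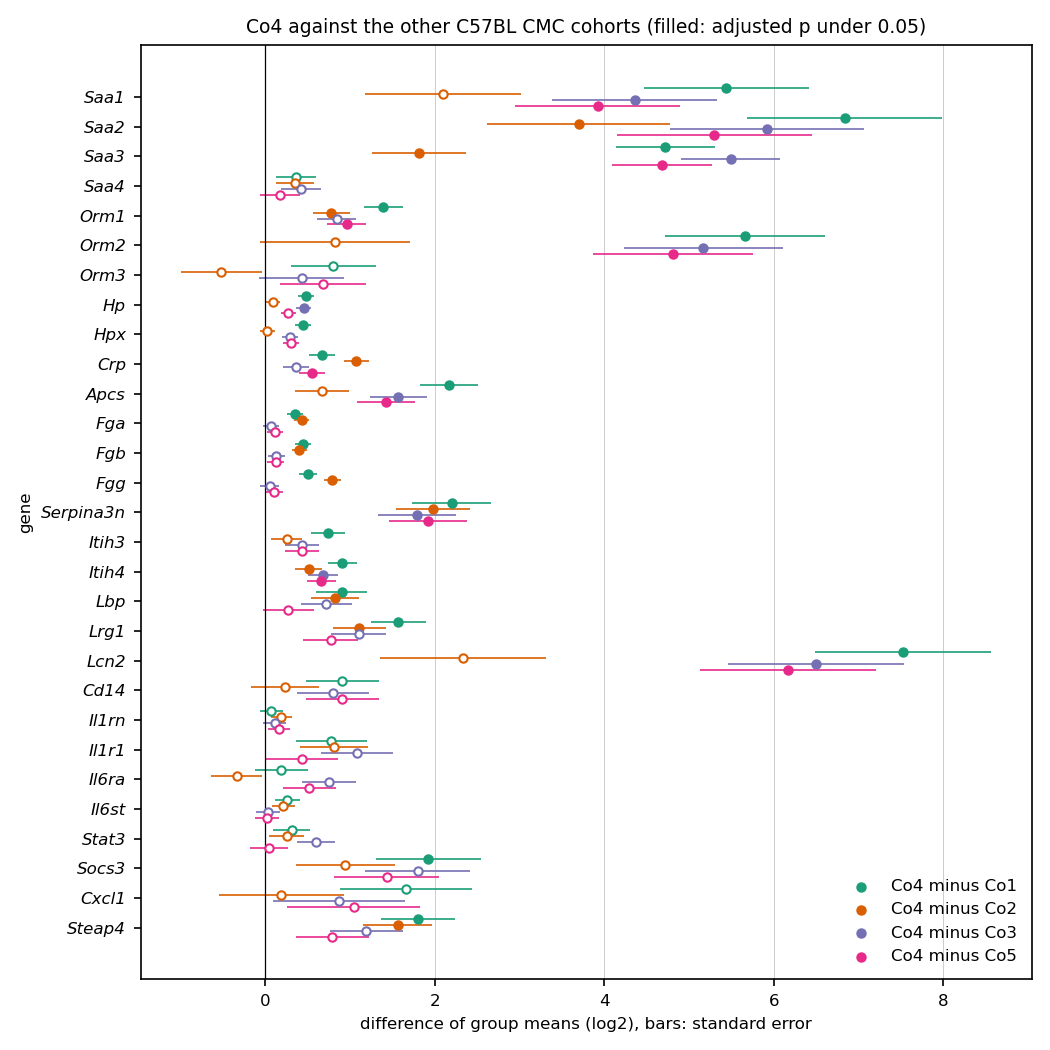
Points show the difference of group means between Co4 and each other C57BL CMC cohort (log2) for every acute phase gene, bars the standard error of the fit, and filled points an adjusted p below 0.05. Lcn2 and Saa2 lie farthest right, at 7.53 and 6.84 from Co1, the points for Co2 lie nearer 0 in most inducible genes, and Orm3 and Il6ra fall below 0 against Co2.

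The hCAR/hPXR CMC livers did not differ from Co4 in any member. The differences ran from −0.44 in Socs3 to 1.12 in Orm3, where 0.126% of all genes passed and 1 member had an unadjusted p under 0.05. For Lcn2 the difference was 0.35 with a 95% interval from −1.60 to 2.30, so that a difference of several fold in either direction was within the error. No member passed between water for 56 and 28 days, where 0.033% of all genes passed, or between corn oil and water for 28 days, where 0.115% passed. In these comparisons limma gave 1 and 4 members at an unadjusted p under 0.05. Cxcl1 had the largest of these differences, with 12.65, 11.10, 11.85, 11.92 and 10.93 in corn oil livers against 7.70, 7.44, 7.50, 11.02 and 11.20 in water. In water, 3 livers were at 7.70 or below and 2 reached the corn oil range, and the difference of 2.72 ± 0.736 had an adjusted p of 0.15.

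Other genes of the response were read from lists chosen with earlier results of these data known. Of 25 other positive acute phase genes measured, 9 were higher and 1 lower in Co4 than in Co1, with a median of 0.17 against −0.04 over all genes. Among them the metallothionein genes Mt1 and Mt2, which bind zinc, were higher by 4.62 and 4.53, and Fgl1, a fibrinogen-like protein gene, by 1.52. Of 21 negative acute phase genes, whose products fall in inflammation, 4 were higher and 1 lower, the last being Cyp8b1, a bile acid enzyme gene, at −1.18. Of 23 genes of interleukin-6 and STAT3 signalling, 5 were higher and 2 lower, with Cish at 2.05, Cebpd at 1.27 and Cebpb at 0.78. Of 29 genes of interleukin-1, TNF and NF-kB signalling, 3 were higher and 1 lower, with the adhesion molecule gene Vcam1 among the higher.

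Markers of other cell types moved with some of these contrasts. Of 18 Kupffer cell and macrophage markers, 7 were higher in Co4 than in Co1, with means of Marco at 8.48 and 5.88 and differences of Cd5l at 1.89, C1qb at 1.89 and Vsig4 at 1.62. Of the same list, Clec4f at 0.56, Adgre1 at 0.48 and Timd4 at 0.51 did not pass. The log2 of their summed levels ran from 11.17 to 13.45 in Co4 livers and from 11.32 to 11.85 in Co1 livers. Of 11 neutrophil markers none was higher in Co4 than in Co1, and 9 were lower in Co4 than in Co2, with S100a8 at −2.71, S100a9 at −2.11, Camp at −2.10 and Mpo at −1.82. Their summed levels ran from 9.85 to 13.18 in Co2 and from 8.80 to 10.02 in Co4. The neutrophil marker Mmp9 was also lower in Co4 than in Co1, at −0.45. Against Co2, Co4 was lower in 6 of 12 stellate cell markers, with Col1a2 at −1.36 and Col3a1 at −1.32, in 3 of 10 lymphocyte markers (Cd8a, Cd79a and Nkg7), in 3 of 5 bile duct markers (Krt7, Krt19 and Sox9) and in the macrophage receptor gene Csf1r, at −1.42. The sinusoidal endothelial marker Oit3 went the other way, at 0.70. In this comparison 30.1% of all genes were called in either direction. Kupffer cell and macrophage markers higher in Co4 numbered 1 against Co3 and 6 against Co5. Of 14 hepatocyte markers, none was higher and 1 lower in Co4 than in Co1. The part of these cells in the differences of the acute phase genes was not tested.

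CITCO was set against the cohorts with the highest acute phase levels. In C57BL livers all 29 members had a lower mean than in Co4 and none passed, where 0.0055% of all genes passed. By limma 17 had an unadjusted p under 0.05, a count for which the share of all genes is not given. The median difference was −0.52 against 0.01 over all genes. In 10 members every treated liver lay below every Co4 liver, as in 0.467% of all genes. Lcn2 was at 8.40, 7.22, 9.16, 10.26 and 10.41 in treated livers, below all 5 Co4 livers and within the range of the other C57BL CMC cohorts. Its difference was −3.87 ± 0.979, with a 95% interval of −5.82 to −1.92 (adjusted p = 0.31), the largest difference of any gene in this comparison. Saa2, at 10.50, 9.15, 11.89, 12.83 and 13.21, stood at −2.81, Orm2 at −2.78 and Saa3 at −2.01, none of them passing. Set against the mean of the 5 C57BL CMC cohorts in place of Co4, the same livers stood at 0.64 in Lcn2, at 1.54 in Saa2 and at 0.51 in Orm2, and Saa3 was higher by 1.33 (adjusted p = 0.0337). That p-value does not take in the spread between the cohorts. Saa3 had a mean of 11.12 in treated livers, below 11.32 in Co2 and 13.13 in Co4. It was at 8.41 in Co1, 7.64 in Co3 and 8.45 in Co5.

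In hCAR/hPXR livers given CITCO, 28 of 29 members had a lower mean than in hCAR/hPXR CMC livers, and again none passed, where 0.0989% of all genes passed. By limma 15 had an unadjusted p under 0.05, again without the share of all genes. In 9 the treated livers lay below all controls, as in 0.742% of all genes. Lcn2 was at 11.55, 9.66, 9.84, 11.57 and 10.36, all below the lowest control at 11.98, and the difference was −2.71 ± 0.979 (adjusted p = 0.43). Serpina3n was at 10.26, 9.47, 9.94, 10.45 and 9.97 against 10.51, 10.97, 13.12, 13.05 and 11.49, with a difference of −1.81 ± 0.437 and the lowest adjusted p of the members, 0.0718. Its highest treated and lowest control liver nearly touched, at 10.45 and 10.51. Fitted on these 2 groups alone, Lcn2, Saa2 and Saa3 passed, with adjusted p-values of 0.0376, 0.0487 and 0.0281. The response of no member differed between the strains, where 0.0055% of all genes did and no member had an unadjusted p under 0.05 by limma. For Lcn2 the response differed by 1.16, with a 95% interval from −1.60 to 3.91.

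**Figure D4:**
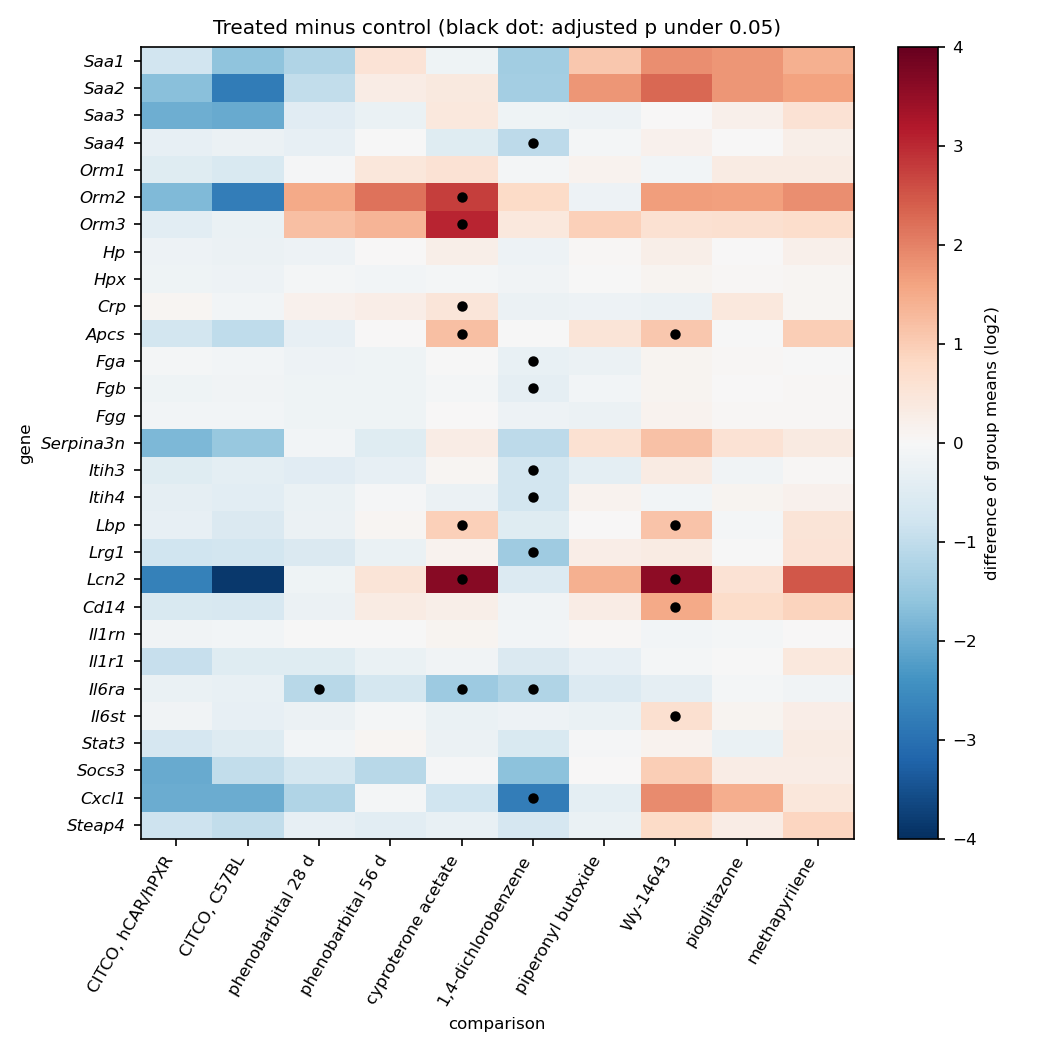
Each cell is the difference of group means, treated minus its named control (log2), with the colour scale ending at 4 in either direction and a black dot at an adjusted p below 0.05. Both CITCO columns are blue without a dot apart from a pale Crp at 0.07 in hCAR/hPXR livers, the dots of cyproterone acetate and Wy-14643 lie mostly on red cells such as Lcn2 at 3.63 and 3.58, and those of 1,4-dichlorobenzene lie on blue cells only.

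After phenobarbital, Il6ra alone of the members passed at 28 days and none passed at 56 days, while every treated liver lay above every water liver in Orm2 and Orm3 at both times. Orm1 lay above all water livers at 56 days only, as in 1.59% of all genes. It stood at 0.46 there and at −0.04 at 28 days, and did not pass. At 28 days 26 of 29 differences were negative, with a median of −0.22 against 0.01 over all genes, and in 5 members, Saa4, Hp, Fgb, Fgg and Il6ra, every treated liver lay below every water liver, as in 2.24% of all genes. At 56 days 17 of 29 were negative, with a median of −0.06, and 4 members, Fga, Fgg, Itih3 and Steap4, lay below, as in 1.4% of all genes. Apart from Il6ra these members stood at −0.17 to −0.43 and did not pass. Il6ra, which encodes IL-6Rα, was at 7.11, 7.67, 7.74, 7.66 and 8.11 after 28 days against 8.28, 8.83, 8.85, 9.32 and 8.59 in water livers, with no overlap. It fell by 1.11 with an SE of 0.297 (adjusted p = 0.041), being the 1 member of 29 to pass, where 0.967% of all genes passed. The call was held in 2 of 10 fits that left out 1 liver. The other Il6ra probe set, at a mean level of 6.19, differed by 0.01, and averaged over both the difference was −0.55. After 56 days no member passed, where 0.566% of all genes passed and 5 members had an unadjusted p under 0.05 by limma. Il6ra stood at −0.70, since 1 water liver was at 9.73 and the other four between 7.51 and 8.10.

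Orm2 after phenobarbital was at 9.04, 8.67, 8.76, 9.14 and 8.63 at 28 days against 7.57, 7.05, 8.14, 6.84 and 7.13 in water, and at 8.47, 9.41, 9.82, 9.24 and 9.07 at 56 days against 6.55, 6.67, 7.09, 7.49 and 7.36. Treated and control livers did not overlap at either time, as in 1.61% and 1.59% of all genes. The differences had 95% intervals from −0.26 to 3.27 and from 0.41 to 3.94 and did not pass, with adjusted p-values of 0.656 and 0.523. Orm3 also had no overlap at either time, with differences of 1.19 ± 0.474 and 1.36 ± 0.474 that did not pass. The standard error is that of all 19 groups, among which Orm2 spread widely. Fitted on the treated and water livers alone, both genes passed at both times, with adjusted p-values of 0.000828 and 0.000291 for Orm2 and 0.00255 and 0.00216 for Orm3. That fit called 5 members at 28 days, 2 higher and 3 lower with Il6ra among them, and 3 at 56 days, all higher. The share of all genes called in that fit is not given, so these counts have no background beside them. No member's response differed between the times, by limma, where 0% of all genes did and no member had an unadjusted p under 0.05.

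Cyproterone acetate, a steroid with progestin and antiandrogen action, was followed by 6 higher members and 1 lower member of 29, where 2.62% of all genes were higher, 2.7% lower and 5.32% called. The higher members were Orm2, Orm3, Crp, Apcs, Lbp and Lcn2, all secreted, and the lower was Il6ra. Fitted on the compared groups alone, Orm3 and Il6ra passed and the other five did not, with adjusted p-values of 0.144 for Orm2, 0.0607 for Crp, 0.083 for Apcs, 0.0518 for Lbp and 0.0594 for Lcn2. The median difference was 0.08, against 0.02 over all genes. Orm3 was at 8.31, 9.84, 8.11, 8.49 and 10.66 against 7.09, 5.58, 5.40, 5.99 and 6.13 in corn oil, with no overlap. It rose by 3.04 ± 0.474, 8.25-fold, with an adjusted p of 3.69e-06, and passed in all 10 fits that left out 1 liver. Il6ra was at 8.53, 6.92, 7.90, 8.37 and 8.07 against 9.10, 9.60, 9.43, 9.47 and 9.45, again with no overlap. It fell by 1.45 with an SE of 0.297 and an adjusted p of 0.000636, and also passed in all 10 such fits, but its other probe set differed by 0.12.

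The remaining calls after cyproterone acetate leaned on replicates 2 and 5. Lcn2 was at 9.02, 12.61, 9.42, 9.31 and 13.64 against 9.35, 6.81, 7.01, 6.57 and 6.09 in corn oil, so that 4 corn oil livers lay below all treated livers and 1 overlapped them. It rose by 3.63 ± 0.979 (adjusted p = 0.0141), and stood at 3.18 without replicate 2 and at 2.92 without replicate 5, with adjusted p-values of 0.0709 and 0.0717. Saa2 was at 6.80, 14.14, 7.66, 8.07 and 14.52 against 11.19, 9.55, 9.36, 10.79 and 8.31, so that 3 treated livers lay below all controls and 2 above them, and the difference of 0.40 ± 1.08 did not pass. Saa1 was split in the same way, at 8.13, 14.48, 9.98, 9.58 and 14.64. Cxcl1, at 7.90, 13.56, 9.45, 10.85 and 12.64, also had replicates 1, 3 and 4 below all corn oil livers.

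Apcs, at 12.75, 14.29, 12.72, 12.67 and 14.04 against 11.92, 12.22, 12.59, 12.19 and 11.56, rose by 1.20 ± 0.321 with no overlap, as in 2.52% of all genes. Crp, at 13.21, 13.76, 13.29, 12.98 and 13.38, lay above all corn oil livers, the highest of which was at 12.91, and rose by 0.49 ± 0.147. Lbp, whose protein carries bacterial lipopolysaccharide to CD14, rose by 0.94 ± 0.282, and its second probe set by 1.03. Orm2 stood at 2.75 ± 0.888 with an adjusted p of 0.049964, and of 7 other settings it passed in 2. With no trend, array weights, averaged probe sets, the replicate block or the compared groups alone, its adjusted p lay between 0.052 and 0.144. Of Apcs, Crp, Lbp and Orm2 none passed without replicate 2 or without replicate 5, where the counts over the list were 2 and 3. Without corn oil replicate 2, 3 or 5 the count was 4. For these fits the shares of all genes called are not given. Of 25 other positive acute phase genes none passed, and of 21 negative ones 1 was higher and 5 lower, with Serpina6, the corticosteroid-binding globulin gene, falling by 2.00 and Apoa4, an apolipoprotein gene, rising by 1.65. No Kupffer cell or neutrophil marker passed, and of 12 stellate cell markers Col3a1, a collagen gene, was lower at −1.49 (adjusted p = 0.0413). Of 14 hepatocyte markers Apoa1 and Hnf4a were lower, at −0.14 and −0.47, while the summed neutrophil markers reached 13.29 in 1 treated liver against at most 9.69 in corn oil livers. Their part in the acute phase values was not tested.

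**Figure D5:**
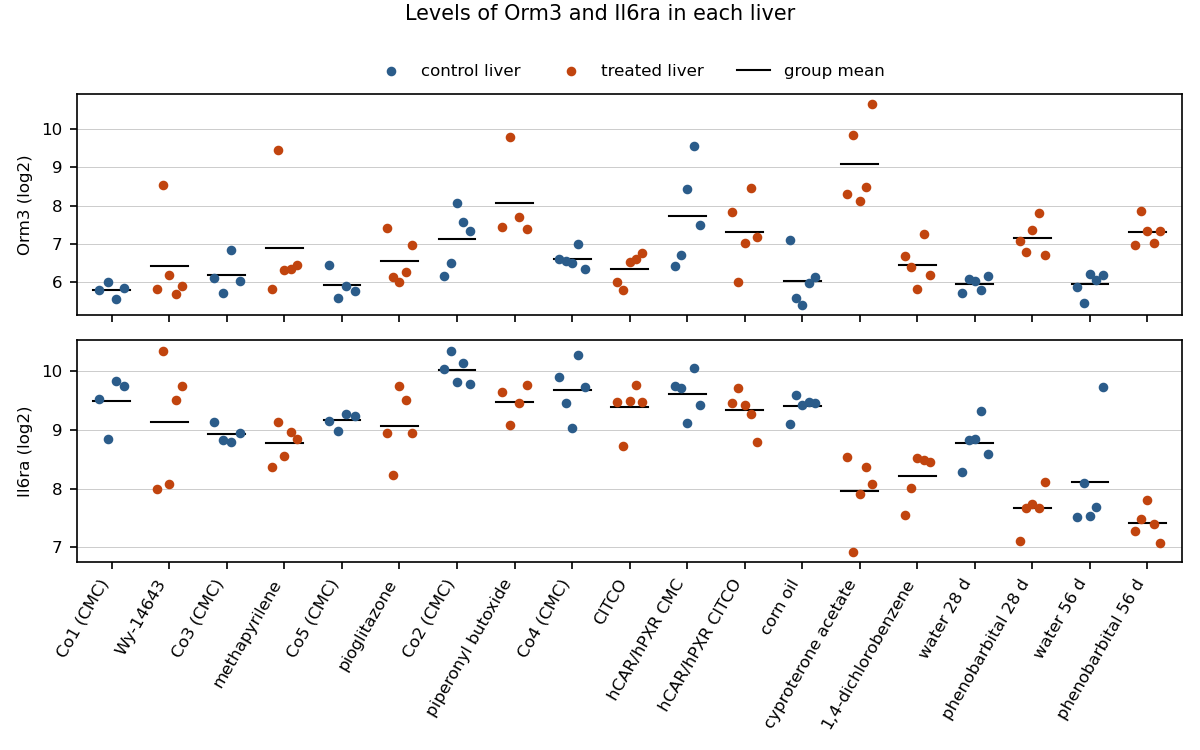
Each point is the log2 level of Orm3 or Il6ra in 1 liver and each line a group mean, with controls in blue and treated groups in orange. After cyproterone acetate all 5 livers lie above the corn oil livers in Orm3 and below them in Il6ra, and the phenobarbital livers at 28 days lie above and below their water controls in the same way.

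1,4-Dichlorobenzene, set against the same corn oil livers, was followed by 8 lower members and no higher one, where 1.67% of all genes were lower and 3.83% called. The median difference was −0.50 and 27 of 29 differences were negative. The lower members were Saa4, Fga, Fgb, Itih3, Itih4 and Lrg1 among the secreted proteins and Il6ra and Cxcl1 among the signalling genes. In 8 members, which were not the same 8, every treated liver lay below every corn oil liver, as in 1.92% of all genes. Lrg1 was at 10.89, 11.52, 11.46, 11.38 and 10.92 against 13.54, 12.42, 12.15, 12.83 and 12.33, and fell by 1.42 with an SE of 0.308 and an adjusted p of 0.00145. Saa4 was at 11.54, 11.73, 12.01, 12.31 and 11.80 against 13.42, 12.76, 12.80, 13.15 and 12.47, without overlap, and fell by 1.04 (adjusted p = 0.00121). Both kept their call in all 10 fits that left out 1 liver, as did Itih4, which fell by 0.72.

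Cxcl1 fell most, by 2.77 with an SE of 0.736 and an adjusted p of 0.0141, from 12.65, 11.10, 11.85, 11.92 and 10.93 to between 8.44 and 9.70. Its second probe set fell by 2.80, and another, at −1.12, did not pass. Without corn oil replicate 1 the difference was −2.53 with an adjusted p of 0.0528. Il6ra was at 7.55, 8.01, 8.52, 8.49 and 8.45, below all corn oil livers, and fell by 1.20 (adjusted p = 0.00669), while its other probe set differed by −0.10. Itih3, the hyaluronan-linked heavy chain gene, fell by 0.73, and Fga and Fgb, of fibrinogen, fell by 0.31 and 0.37, all 3 losing their call without treated replicate 1 and Fga also without any of 5 other livers. Without that liver Il6ra lost its call too and the count was 4, for which the share of all genes is not given. Serpina3n and Socs3 lay below all corn oil livers, at −1.05 and −1.65, but did not pass. Fitted on the compared groups alone, 8 members were again lower, 6 of them the same: Serpina3n and Socs3 passed, with adjusted p-values of 0.00534 and 0.0254, and Fga and Fgb did not, with 0.203 and 0.0782.

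The strongly inducible members did not pass. Saa1 and Saa2 stood at −1.39 ± 0.920 and −1.36 ± 1.08, Lcn2 at −0.54 and Orm2 at 0.76, with treated and control livers overlapping. Of 25 other positive acute phase genes 8 were lower and none higher, including Fgl1 at −1.24 and Slc39a14, a zinc and iron carrier gene, at −0.88. Of 21 negative acute phase genes 11 were lower and none higher, including F7, a clotting factor gene, at −0.60 and Igfals, a carrier of insulin-like growth factors, at −0.55. Among interleukin-6 signalling genes Cebpb fell by 0.81. Of 14 hepatocyte markers 3 were lower, and no Kupffer cell or neutrophil marker passed.

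Wy-14643, a ligand of PPARα, was set against Co1, which had the lowest control mean in 15 of the 29 members. In treated livers 5 members were higher and none lower, where 5.55% of all genes were higher and 10.6% called. The median difference was 0.32, against −0.04 over all genes. Set against the mean of the 5 C57BL CMC cohorts, Lbp, Cd14 and Il6st were higher and Saa3, Orm1, Crp and Itih4 lower, at −1.37, −0.72, −0.38 and −0.47, where 13.6% of all genes were called. There Lcn2 stood at 0.56 and Apcs at 0.08, with adjusted p-values of 0.699 and 0.881. The p-values against this mean do not take in the spread between the cohorts. Saa3 was at 8.42 after Wy-14643, against 8.41 in Co1, 7.64 in Co3 and 8.45 in Co5. It was at 11.32 in Co2 and 13.13 in Co4, which raise the mean. Fitted on the compared groups alone, Lbp, Cd14 and Il6st passed, and Lcn2 and Apcs had adjusted p-values of 0.121 and 0.112. Il6st, the gp130 gene, was at 9.78, 10.17, 9.91, 10.26 and 10.38 against 9.66, 9.27, 9.42 and 9.44, with no overlap, and rose by 0.65 ± 0.143 (adjusted p = 0.000874). Its other 3 probe sets differed by 0.02, −0.27 and 0.01, and averaged over all 4 the difference was 0.10 with an adjusted p of 0.581. Lbp was at 10.88, 11.58, 10.88, 11.04 and 11.32 against 9.76, 9.87, 10.29 and 10.05, with no overlap, and rose by 1.15 ± 0.299, its second probe set by 1.31. Cd14, the lipopolysaccharide receptor gene, was at 5.86, 7.29, 6.50, 6.06 and 7.61 against 5.00, 4.86, 5.39 and 5.34, and rose by 1.51 ± 0.425, with 1.28 and an adjusted p of 0.066 without replicate 5. All treated livers lay above the controls in these 3 genes, as in 4.09% of all genes.

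Lcn2 after Wy-14643 was at 5.24, 13.01, 6.97, 8.18 and 11.62, so that 1 treated liver lay among the Co1 livers and 2 reached the level of Co4. It rose by 3.58 ± 1.04 (adjusted p = 0.0156), and stood at 2.58 without replicate 2 and at 2.93 without replicate 5, with adjusted p-values of 0.109 and 0.0855. Apcs rose by 1.08 ± 0.340 and likewise lost its call without either of them. Saa2, at 6.45, 14.30, 7.60, 8.40 and 12.27, and Cxcl1, at 7.78, 13.70, 9.42, 12.62 and 13.12, spread over a similar range and did not pass. The count over the list was 3 without replicate 2, 2 without replicate 5 and 8 without replicate 1. The shares of all genes called in these fits are not given, so the counts have no background. Set against that mean of cohorts, the group stood at −0.17 in Saa2 and at −0.69 in Orm2. Another, dimmer probe set of Il1rn was higher by 1.63 (adjusted p = 0.000757), while the one used here differed by −0.11.

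Of 25 other positive acute phase genes 4 were higher and 3 lower after Wy-14643, with Mt1 at 3.63, Mt2 at 3.28 and Vnn1, a pantetheinase gene and known PPARα target, at 1.22, and C9, a complement gene, at −1.69. Of 21 negative ones 7 were lower, with Apoa4 at −1.83, and of 23 interleukin-6 signalling genes 5 were lower, with the receptor gene Lifr at −1.99, Pim1 at −0.87 and Cebpa at −0.73. Of 18 Kupffer cell and macrophage markers 7 were higher, with C1qb at 1.70, Cd5l at 1.68 and Vsig4 at 1.53. Their summed levels ran from 11.98 to 13.18 in treated and from 11.32 to 11.85 in Co1 livers, without overlap. The sinusoidal endothelial markers Lyve1 and Stab1, 2 of 10, were higher by 1.57 and 0.63, and the stellate cell marker Hgf, 1 of 12, by 0.72. The part of these cells in the rise of Cd14 and Lcn2 was not tested.

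No member passed after piperonyl butoxide, pioglitazone or methapyrilene, where 0.808%, 0.022% and 0.181% of all genes passed. By limma 2, 1 and 4 members had an unadjusted p under 0.05. Methapyrilene was given in food and its control Co3 is a CMC cohort, so that drug and vehicle cannot be told apart there. After methapyrilene 27 of 29 differences were positive, with a median of 0.34 against 0.01 over all genes. Lcn2 was at 6.15, 12.83, 7.69, 6.96 and 10.95, so that 2 livers stood far above the others, and the difference of 2.47 ± 1.04 had an adjusted p of 0.618. Apcs, at 11.88, 13.92, 12.40, 11.99 and 12.39, lay above all Co3 livers, though the nearest 2 both round to 11.88, and differed by 0.98 ± 0.340 without passing. After pioglitazone, a PPARγ ligand, Crp lay above all Co5 livers, at 12.94 to 13.05 against 12.53 to 12.56, with a difference of 0.43 that did not pass. After piperonyl butoxide, Saa2 stood at 1.77 ± 1.15 and Lcn2 at 1.41 ± 1.04 from Co2, and Il6ra, at −0.54, lay below all Co2 livers. Apcs, Crp and Il6ra were each the 1 member of 29 without overlap in their comparison. The share of all genes without overlap is not given there, so these are not read as results about the members.

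In many members, livers of the same group differed from each other in a shared direction. Each liver's deviation from its group mean was compared with that of Lcn2 over all 91 livers, in 28 relations, by permuting livers within groups 100000 times. Orm2 followed Lcn2 most closely, with Pearson's r = 0.91 and Spearman's rho = 0.89, and r = 0.89 without the 2 livers farthest from the median of Lcn2, which were Co5 replicate 1 and Wy-14643 replicate 2. Saa2 had r = 0.89 and rho = 0.84, Saa1 0.87 and 0.81, Hp 0.84 and 0.81 and Hpx 0.81 and 0.75. For each of these the permutation p was 1e-05, the smallest these permutations can give, and the adjusted p 1.65e-05 for r and 1.75e-05 for rho. The deviations share the array and the group mean, and close probe sets of Saa1 and Saa2 share signal. Relations of Lcn2 with genes outside the list were not computed, so these values have no background beside them.

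Among the signalling genes Steap4 had r = 0.63 and rho = 0.68, Stat3 r = 0.55 and rho = 0.56, Cxcl1 0.54 and 0.43, Socs3 0.44 and 0.34, and Il6st 0.34 and 0.33. Il1rn had r = 0.27 with an adjusted permutation p of 0.0502, and rho = 0.30 with an adjusted permutation p of 0.0146. Il6ra had r = 0.21 and rho = 0.02, with permutation p-values of 0.155 and 0.868, and showed no relation that could be told from 0 at this number of livers. Among members counted as circulating or shed proteins Crp had the lowest value, at r = 0.35 and rho = 0.35 (adjusted permutation p = 0.00302 for r). It was followed by Fgg at r = 0.42, Cd14 at 0.43, Fga at 0.49 and Fgb at 0.51. Il1rn and Cxcl1 were counted with the signalling members. No test compared these sets of members.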

How the data were processed

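RNA from 91 livers was hybridised to Affymetrix mouse arrays, and the authors deposited log2 expression values made with RMA (no version given), according to the labels and per the submitters' processing notes. Values of 45037 probe sets were used as deposited, without further normalisation. Of these, 34945 had 1 gene symbol in the platform annotation, 932 several and 9160 none. Each of 18193 genes was read by its single-symbol probe set of highest mean.

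Group means of all 19 groups were fitted with limma 3.58.1 in R 4.3.3 (72 residual degrees of freedom, empirical Bayes with a mean-variance trend), and p-values were adjusted by Benjamini-Hochberg over all genes in each comparison, with a threshold of 0.05. The script was tested on simulated data. No arrays held identical values (highest pairwise correlation 0.9957). Shared replicate numbers did not pair the livers, so no block was used. Genes named were the listed members, with related lists described by counts and leading values. The members and lists were chosen with earlier results of these data known. Alternatives were each left-out liver, a fit of only the groups compared, no trend, array weights, averaged probe sets, a filter on dim genes, median centring, a replicate block and the mean of the C57BL CMC cohorts as control.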

Additional observations from a re-analysis of the deposited data

Results flagged for a closer look

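Within groups of 4 or 5 livers, 30 of 551 sets of values held a liver far from the others by Dixon's test at the 95% level, which is 5.44%, and chance gives about 1 in 20. Of these livers, 27 were high and 3 low. None of them was left out.

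Replicate 2 of Wy-14643 stood apart in Saa3 at 10.49, Orm1 at 14.22 and Orm3 at 8.55. Replicate 2 of methapyrilene stood apart in Saa4 at 13.61, Orm3 at 9.44, Apcs at 13.92 and Serpina3n at 11.48. Replicate 2 of piperonyl butoxide stood apart in Orm3 at 9.78, Fgg at 14.16, Itih3 at 13.92 and Stat3 at 10.87. All were the highest of their group.

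Among control livers, replicate 3 of water for 28 days was high in Saa1 at 12.55, Saa2 at 10.74 and Hp at 14.31, and replicate 1 of the same group was low in Steap4 at 10.05. Replicate 5 of water for 56 days was high in Itih4 at 13.84, Il1r1 at 9.19 and Il6ra at 9.73. Replicate 1 of corn oil was high in Orm2 at 9.36 and Lcn2 at 9.35, and replicate 5 of corn oil was low in Fga at 13.83. In the CMC cohorts, Orm2 was high at 8.10 in Co1 replicate 2, Lrg1 at 12.97 in Co3 replicate 3 and Cxcl1 at 12.11 in Co2 replicate 2.

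Among the remaining treated livers, Itih3 was high at 14.28 in replicate 5 of cyproterone acetate, Lcn2 at 8.75 in replicate 2 of 1,4-dichlorobenzene, Crp at 13.05 in replicate 1 and Socs3 at 10.34 in replicate 2 of pioglitazone. In C57BL livers given CITCO, Apcs was high at 12.56 in replicate 5 and Il6ra low at 8.73 in replicate 2.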

How the results depend on the processing

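The choice of control cohort turned directions. Against the mean of the 5 C57BL CMC cohorts, C57BL livers given CITCO stood at 1.54 in Saa1, 1.54 in Saa2, 1.33 in Saa3, 0.51 in Orm2, 0.16 in Apcs, 0.06 in Serpina3n, 0.64 in Lcn2 and 0.22 in Socs3. Livers given Wy-14643 stood at −0.42 in Saa1, −0.17 in Saa2 and −0.69 in Orm2, and those given methapyrilene at −0.01 in Orm2. With that control 2 members passed after CITCO in C57BL livers, 13 after piperonyl butoxide (8 higher, 5 lower), 1 after pioglitazone and 4 after methapyrilene. The shares of all genes called are not given for these counts, so they are not read as results about the members. Co2, the named control of piperonyl butoxide, itself differed from Co1, Co3, Co4 and Co5 in 13%, 25.5%, 30.1% and 21.7% of all genes. The p-values against this mean do not take in the spread between cohorts. After Wy-14643 it was 7, with 3 higher and 4 lower in place of 5 higher, and 3 of the 7 were among the reported 5.

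With only the compared groups in the fit, 3 members passed after CITCO in hCAR/hPXR livers, 5 after phenobarbital for 28 days, 3 for 56 days, 2 after cyproterone acetate, 3 after Wy-14643 and 1 after pioglitazone. For 1,4-dichlorobenzene the count stayed at 8, of which 6 were among the reported 8. The shares of all genes called in these fits are not given, so the counts have no background beside them. With array weights the count was 2 for CITCO in hCAR/hPXR livers and 1 for corn oil against water. With probe sets averaged it was 0 for phenobarbital at 28 days, and with the filter on dim genes 1 for CITCO in hCAR/hPXR livers. The cause was not tested. With the replicate block, 6 members passed after cyproterone acetate, and the counts of the other comparisons were as reported. No trend and median centring moved no count by over 1.5 times. The shares of all genes called under these settings are not given either.

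Leaving out 1 liver at a time gave 0 to 1 for CITCO in hCAR/hPXR livers and for phenobarbital at 28 days, 2 to 7 for cyproterone acetate, 4 to 8 for 1,4-dichlorobenzene, 0 to 2 for piperonyl butoxide and 2 to 8 for Wy-14643. For Co4 it gave 18 to 21 against Co1, 10 to 13 against Co2, 4 to 10 against Co3 and 4 to 11 against Co5. It gave 17 to 21 over the 5 cohorts and 0 elsewhere. The shares of all genes called in the fits without 1 liver are not given, so these counts have no background beside them. Groups of 4 or 5 mice limit what could pass.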
